A study of Mus musculus with 6 samples.

Results

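The genes described here carry out signalling by sphingosine 1-phosphate (S1P) and lysophosphatidic acid (LPA): the S1P receptors S1pr1, S1pr2 and S1pr3, the sphingosine kinases Sphk1 and Sphk2, the S1P exporter Spns2, and the LPA receptors Lpar1, Lpar4 and Lpar6. They were chosen by name, and every probe set annotated to these symbols alone was taken, which gave 9 genes and 18 probe sets among the 18193 genes named on the array. All 18 probe sets passed the filter on low signals, as did a probe set of 14949 of the named genes. The study hybridised RNA from ICR mouse embryos at 8.5 days post coitum (dpc), when they had 3 to 4 somites and no circulation yet, to Affymetrix mouse arrays, with 2 arrays in each of 3 groups. The groups were Flk1-positive cells, wild-type (WT) embryos and Flk1 KO embryos, and all were of the ICR strain. Flk1, whose gene symbol is Kdr, is the main receptor for vascular endothelial growth factor on endothelial cells and their precursors, and embryos without it fail to form blood vessels. The series design also names Flk1+/GFP embryos, in which a fluorescent protein marks the Flk1 locus, and says that embryos proper were taken. How the Flk1-positive cells were selected, and how many embryos went into an array, are not given in the sources used here. A signal from Flk1-positive cells against one from WT embryos therefore sets a cell fraction against a mixture of tissues.

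S1P and LPA are small lipids that act outside cells on G protein-coupled receptors. Sphingosine kinases make S1P inside the cell, Spns2 carries it out, and S1pr1, coupled to Gi, tightens endothelial junctions and restrains vessel sprouting, whereas S1pr2 and S1pr3 also couple to other classes of G protein. LPA is mostly made outside the cell by the enzyme autotaxin, and Lpar4 and Lpar6, which couple to G12 and G13, take part in forming blood vessels.

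Start-site sequence was looked up because S1pr1, Spns2 and Lpar6 lay on one side of the comparison of Flk1-positive cells with WT embryos and S1pr2, S1pr3, Lpar1 and Lpar4 on the other. RefSeq (GRCm38.p6) gave start sites for 8 of the 9 members, and S1pr1 was the one without an entry. Of these, 4 are printed as the 250 bases before the listed start, 5′ to 3′ on the gene's strand, from the higher members Spns2 and Lpar6 and the lower members S1pr3 and Lpar4. Capitals mark each GGAA, or TTCC for the other strand, the core of sites bound by ETS factors, a family with members active in endothelial cells. The windows are chr11:72475028-72475277 on the minus strand for Spns2, chr14:73237641-73237890 on the plus strand for Lpar6, chr13:51408368-51408617 on the plus strand for S1pr3, and chrX:106920375-106920624 on the plus strand for Lpar4. The Spns2 start listed lies inside the gene, 14949 bases from the outer end of its span.
Spns2: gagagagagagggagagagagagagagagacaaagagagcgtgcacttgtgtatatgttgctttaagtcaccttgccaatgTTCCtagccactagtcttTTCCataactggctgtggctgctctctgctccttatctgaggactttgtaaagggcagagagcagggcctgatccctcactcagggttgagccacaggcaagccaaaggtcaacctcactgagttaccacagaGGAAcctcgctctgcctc
Lpar6: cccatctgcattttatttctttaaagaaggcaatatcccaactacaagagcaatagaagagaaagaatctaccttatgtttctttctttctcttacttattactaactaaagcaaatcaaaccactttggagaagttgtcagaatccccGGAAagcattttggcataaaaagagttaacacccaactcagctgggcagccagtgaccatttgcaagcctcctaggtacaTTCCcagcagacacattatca
S1pr3: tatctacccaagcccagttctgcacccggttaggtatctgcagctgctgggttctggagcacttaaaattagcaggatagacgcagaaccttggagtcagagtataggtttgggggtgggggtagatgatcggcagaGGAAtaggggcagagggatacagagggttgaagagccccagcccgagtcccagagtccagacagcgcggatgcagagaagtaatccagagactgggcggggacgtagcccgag
Lpar4: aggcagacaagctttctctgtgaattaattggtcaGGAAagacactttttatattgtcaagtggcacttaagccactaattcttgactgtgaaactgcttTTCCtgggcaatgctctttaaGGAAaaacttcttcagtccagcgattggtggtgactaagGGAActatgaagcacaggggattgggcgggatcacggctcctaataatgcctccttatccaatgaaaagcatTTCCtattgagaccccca

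GGAA, searched on both strands, was found 3 times before Spns2, 2 times before Lpar6, 1 time before S1pr3 and 5 times before Lpar4. Among all 32851 promoter windows of this length in the table, 93.4% held it, with a median of 3. GATAA on both strands, a core bound by GATA factors, was found 1 time each before Spns2, Lpar6 and Lpar4 and not before S1pr3, against 22.6% of all windows with 1 or more. CACCC on both strands, a core bound by KLF factors, was found 2 times before S1pr3 and 1 time before Lpar6 and not before Spns2 or Lpar4, against 52.0% of all windows. These are matches of letters only, and both the higher and the lower members held GGAA.

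The labels were checked first on the targeted gene and on cell markers. The Kdr signal was 3309 and 3328 on the Flk1-positive arrays, 544 and 546 on the WT arrays, and 29.5 and 63.8 on the Flk1 KO arrays. The 2 KO arrays average below the background level, a signal of 57.4, below which 95% of 80 probe sets for odorant and vomeronasal receptors lay. The summed signal of 7 endothelial markers was 30950 to 31262 in the Flk1-positive fraction, 2059 to 2150 in whole WT and 517 to 619 in Flk1 KO embryos, where 1 of the 7 was above background. That of 6 primitive erythroid markers was 42919 to 44579, 646 to 1199 and 249 to 397 in the same order, and that of 5 other blood cell markers 3771 to 3991, 638 to 677 and 403 to 656. Neuroectoderm markers summed to 115 to 224 in the cells, with 1 of 4 above background, against 7796 to 7966 in WT embryos. Cardiomyocyte markers summed to 692 to 769.7 in the cells, with 3 of 5 above background, 9187 to 9615 in WT embryos and 12569 to 17730 in Flk1 KO embryos. Yolk sac endoderm markers summed to 6198 to 6394 in the cells, with 4 of 4 above background, 15091 to 17260 in WT embryos and 21403 to 22993 in Flk1 KO embryos. The series design says that embryos proper were taken, and the tissue that gave these signals was not tested. Somite and mesenchyme markers summed to 1557 to 1565 in the cells, with 4 of 5 above background, and 6358 to 7150 in WT embryos. Gut and surface epithelium markers summed to 382 to 424 in the cells and 7323 to 7735 in WT embryos. Of these 4, 2 were above background in the cells. The Flk1-positive fraction thus carried markers of every list above background. All or most of them were for endothelium, blood, yolk sac endoderm, mesenchyme and cardiomyocytes. For yolk sac endoderm, mesenchyme and cardiomyocytes, the sums in the cells were below those in WT embryos. From which of these cell types a member's signal came cannot be told apart. The trimmed mean signal was 500 on every array, and within-group correlations of log2 signals were 0.981 to 0.985. Correlations between arrays of different groups ran from 0.926 to 0.983, so the 2 ranges overlap. The 3′ minus 5′ difference of the transferrin receptor control, a sign of RNA length, was 1.26 and 1.35 (log2) in the cells and 0.94 to 1.05 in the embryos, while that of beta-actin was 0.26 and 0.29 against 0.47 to 0.58, and the part of RNA length in the results was not tested.

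Of the 9 genes, 3 were higher and 4 lower in the Flk1-positive fraction than in WT embryos, and Sphk1 and Sphk2 passed in neither direction. Differences are on the scale of log2(signal + 21.61), which understates the change of dim genes, with the standard error (SE) of the limma fit, and a fold is the same difference unlogged. Where the dimmer group averaged below background, the fold is given against the background level as a lower bound, written as at least. A call is a Benjamini-Hochberg adjusted p at or below 0.05 over all 33778 probe sets tested, in limma's moderated test with 3 residual degrees of freedom. Over all genes tested, by the brightest probe set of each, 12.5% were called higher and 18% lower in this comparison. The labels do not state whether arrays sharing a group label had separate litters behind them, so each p-value reflects spread among these 6 arrays alone, possibly technical spread. In RNA from whole embryos, fewer cells of a type and less RNA per cell cannot be told apart.

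**Figure D1:**
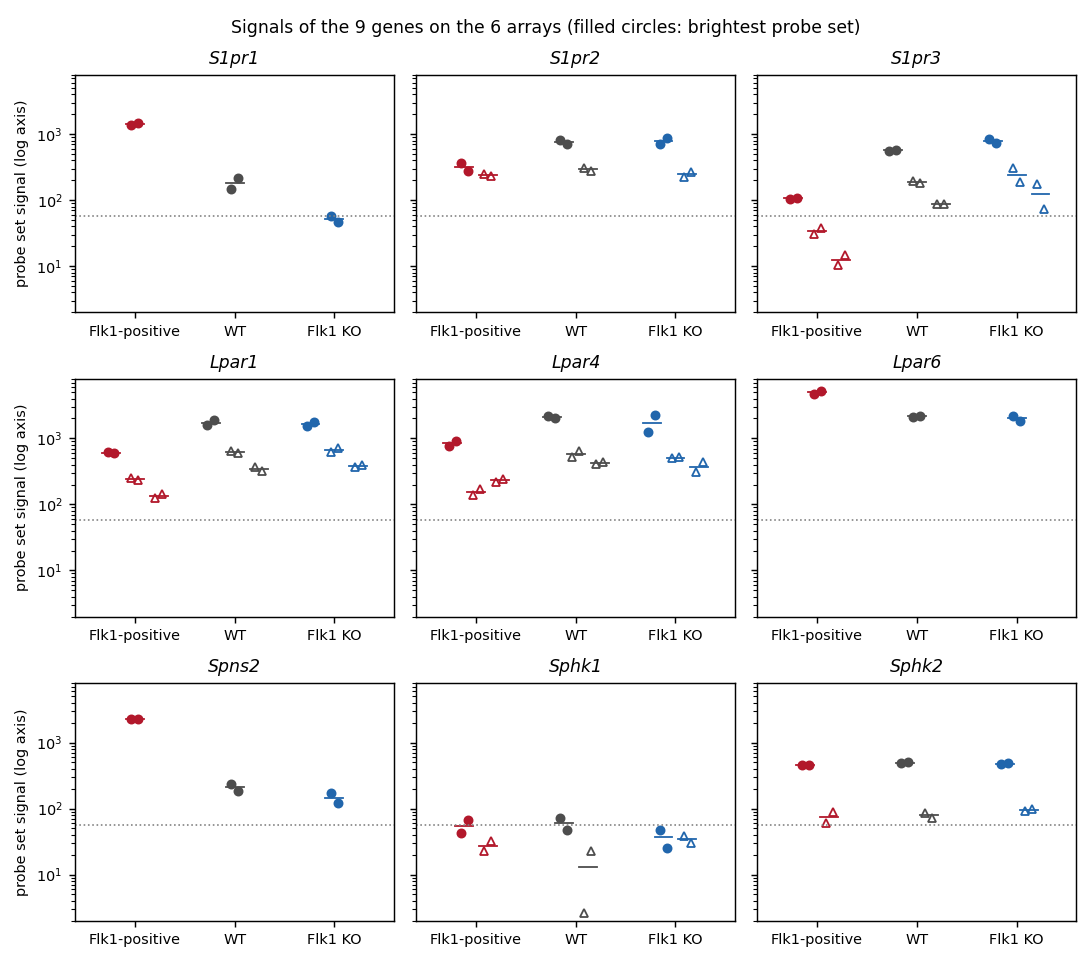
Probe set signal on a log axis for the 9 genes on the 6 arrays, with 2 arrays a group as points (filled circles for the brightest probe set, open triangles for others), group means as short lines and the background level of 57.4 dotted. S1pr1, Spns2 and Lpar6 are highest in Flk1-positive cells, the brightest probe sets of S1pr2, S1pr3, Lpar1 and Lpar4 are lowest there, and Sphk1 lies near background in all groups.

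S1pr1, the Gi-coupled S1P receptor of endothelium, gave signals of 1389.9 and 1477 on the Flk1-positive arrays, 149 and 214 on the WT arrays, and 57.5 and 46.4 on the Flk1 KO arrays. Its group means were 1433 ± 61.3, 181 ± 45.7 and 51.9 ± 7.86 (SD, n = 2 each). The groups lay apart, with the cells highest, WT embryos between and KO embryos at the background level. The difference between Flk1-positive cells and WT embryos was 2.86 ± 0.20 (SE), a 7.26-fold higher signal (adjusted p = 0.000669). S1pr1 has 1 probe set on the array, so no second measurement of it exists here.

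S1pr2, which couples to G12 and G13 as well as Gi, gave 365 and 281 on the Flk1-positive arrays, 820.1 and 704 on the WT arrays, and 702 and 875 on the Flk1 KO arrays by its brightest probe set. The cells lay below every embryo array, and the 2 kinds of embryo overlapped. It was 2.29-fold lower in the cells than in WT embryos, a log2 difference of -1.19 ± 0.20 (adjusted p = 0.00999), and without WT replicate 1 the adjusted p was 0.0641. The other S1pr2 probe set, with 247 and 231, 305 and 279, and 227 and 266 in the same order, differed by only -0.27 ± 0.14 (95% interval -0.62 to 0.09, adjusted p = 0.229). The 2 probe sets of S1pr2 therefore disagree, and the lower level of this gene rests on 1 of them.

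S1pr3, a receptor coupled to Gi, Gq and G12/13, gave 106 and 108 on the Flk1-positive arrays, 556 and 579 on the WT arrays, and 838 and 741 on the Flk1 KO arrays. No 2 groups overlapped, and the order was the reverse of that of S1pr1. The cells were 4.58-fold lower than WT embryos, a log2 difference of -2.19 ± 0.13 (adjusted p = 0.000535). The other 2 probe sets of S1pr3 were called lower too, by at least 2.68-fold and at least 1.39-fold, where the cells averaged below background (differences -1.93 ± 0.24 and -1.69 ± 0.34, adjusted p = 0.00393 and 0.0193). All 3 probe sets of this gene thus passed the test in the same direction.

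The enzymes that make S1P showed no call. Sphk1, one of the 2 sphingosine kinases, gave 42.2 and 67.5 on the Flk1-positive arrays, 73 and 47.4 on the WT arrays, and 47.5 and 25.5 on the Flk1 KO arrays. These signals straddle the background level and overlap among all groups. The difference between the cells and WT embryos was -0.10 ± 0.29, with a 95% interval of -0.82 to 0.62 (adjusted p = 0.831). The other Sphk1 probe set averaged below background in all 3 groups.

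Sphk2, the other sphingosine kinase, gave 459.9 and 452 on the Flk1-positive arrays, 484 and 504 on the WT arrays, and 475 and 488 on the Flk1 KO arrays. It had the narrowest range of group means among the members, 0.11 on the log2 scale. Its difference between the cells and WT embryos was -0.11 ± 0.12 (95% interval -0.41 to 0.19, adjusted p = 0.547). The second Sphk2 probe set gave -0.07 ± 0.19 and no call either.

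Spns2, the exporter that releases S1P from endothelial cells, gave 2310.3 and 2306 on the Flk1-positive arrays, 237 and 184 on the WT arrays, and 171 and 123 on the Flk1 KO arrays. The cells stood far above both kinds of embryo, and KO arrays lay below WT arrays. It was 10.1-fold higher in the cells than in WT embryos, a log2 difference of 3.34 ± 0.20 (adjusted p = 0.000535), the largest of the 9 in size in this comparison. Spns2 also has 1 probe set. In the RefSeq table the gene overlaps Mybbp1a, whose brightest probe set differed by 0.09 ± 0.13 between the cells and WT embryos (no call).

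**Figure D2:**
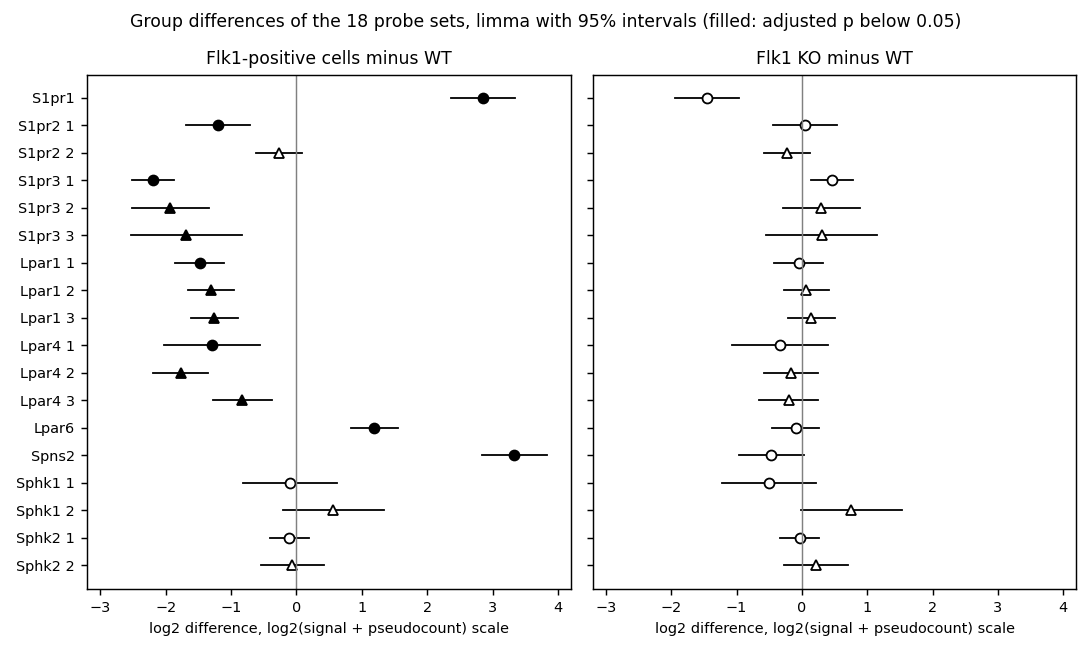
Log2 differences of the 18 probe sets of the 9 genes with their 95% intervals, in Flk1-positive cells against WT embryos and in Flk1 KO embryos against WT embryos, with filled symbols for calls and circles for the brightest probe set of a gene. In the first comparison 3 probe sets were called higher and 10 lower, and in the second none was called. Probe sets of the same gene are counted separately. Of all 33778 probe sets tested, 3924 were called higher and 4879 lower in the first comparison, and 0 and 27 in the second.

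Among the LPA receptors, Lpar6 was the member that was higher in Flk1-positive cells. Its signals were 4739 and 5208 on the Flk1-positive arrays, 2121 and 2199 on the WT arrays, and 2191 and 1859 on the Flk1 KO arrays. The cells lay above all embryo arrays, and the 2 kinds of embryo overlapped. The difference from WT embryos was 1.19 ± 0.14, or 2.29-fold (adjusted p = 0.00375). In the RefSeq table Lpar6 lies wholly inside the span of Rb1, and Rb1 itself gave -0.36 ± 0.16 in the same comparison (adjusted p = 0.159).

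Lpar1, a receptor coupled to Gi, Gq and G12/13 that is found in many mesenchymal and neural cells, gave 614 and 600.1 on the Flk1-positive arrays, 1601 and 1871 on the WT arrays, and 1553 and 1791 on the Flk1 KO arrays. The cells lay below, and both kinds of embryo overlapped. It was 2.79-fold lower in the cells than in WT embryos (log2 difference -1.48 ± 0.15, adjusted p = 0.00208). Its other 2 probe sets, with differences of -1.30 ± 0.14 and -1.26 ± 0.14, were called lower as well (adjusted p = 0.0025 and 0.00311).

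Lpar4, the LPA receptor of the same P2Y-like branch as Lpar6, gave 773 and 918 on the Flk1-positive arrays, 2193 and 2017 on the WT arrays, and 1233 and 2235 on the Flk1 KO arrays. The cells lay below all embryo arrays, and the 2 KO arrays were far apart, so they overlapped the WT arrays. It was 2.46-fold lower in the cells than in WT embryos (log2 difference -1.30 ± 0.29, adjusted p = 0.0274), and the call was lost on leaving out either array of the cells or either WT array, with adjusted p from 0.0732 to 0.121. The other 2 probe sets of Lpar4 were also called lower, at -1.77 ± 0.17 (adjusted p = 0.00168) and -0.83 ± 0.18 (adjusted p = 0.0252). Lpar4 and Lpar6, receptors of one ligand and one branch, thus had calls of opposite sign in Flk1-positive cells.

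In Flk1 KO embryos against WT embryos, none of the 9 genes passed the limma test in either direction. Over all genes tested, 0% were called higher and 0.14% lower in this comparison, which is 21 genes. At an unadjusted limma p under 0.05 there were 2 of the 18 member probe sets, beside 8.39% of all probe sets tested. They were that of S1pr1 and the brightest of S1pr3. S1pr1 was at least 2.54-fold lower in the KO embryos, a log2 difference of -1.45 ± 0.20 (95% interval -1.94 to -0.96, adjusted p = 0.14). It was called under 2 of the alternatives, a filter at the 50th percentile (adjusted p = 0.0348) and a prior that follows intensity with robust estimation (adjusted p = 0.00885), while the adjusted p over all alternatives ran up to 0.446. S1pr3 was higher on both KO arrays than on both WT arrays, by 0.46 ± 0.13 (95% interval 0.13 to 0.79, adjusted p = 0.445), by its brightest probe set. The other 2 probe sets of S1pr3 overlapped between KO and WT arrays, with 303 and 187 against 199 and 182 (0.30 ± 0.24, 95% interval -0.30 to 0.89) and 173 and 73.1 against 88.8 and 88.1 (0.30 ± 0.34, -0.55 to 1.15).

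Spns2 was lower on both KO arrays than on both WT arrays, by a log2 difference of -0.47 ± 0.20 (95% interval -0.97 to 0.03, adjusted p = 0.624). S1pr1 and Spns2 were thus the 2 members with KO arrays wholly below the WT arrays, and S1pr3 the 1 member with them wholly above, by the brightest probe sets. Over all genes tested, KO arrays lay wholly below in 18.2% and wholly above in 19.1%, so 2 and 1 of 9 are near that background. Endothelial markers moved beside these values: 3 of 7 were called lower in KO embryos, all 7 had KO arrays below the WT arrays, and their median difference was -1.71. Of the 6 primitive erythroid markers, 3 had KO arrays wholly below the WT arrays, with no call and a median difference of -0.63. The part of these markers in the values of S1pr1 and Spns2 was not tested. Cardiomyocyte markers had a median difference of 0.61, with KO arrays above WT arrays in 5 of 5. Yolk sac endoderm markers had a median of 0.29, with KO arrays above in 2 of 4 (Afp at 1.13 and Apoa1 at 0.50). Apob of that list went the other way, at -0.67 with overlapping arrays. Somite and mesenchyme markers had a median of 0.08, with KO arrays above in 2 of 5. Neuroectoderm markers had a median of -0.10, with KO arrays below in 2 of 4 and above in 0. Gut and surface epithelium markers had a median of 0.001, with KO arrays below in 2 of 4 and above in 1. No gene of these lists was called. The part of these markers in the S1pr3 value was not tested.

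The other members had intervals that span 0 in this comparison. The differences were 0.04 ± 0.20 for S1pr2 (95% interval -0.45 to 0.53), -0.50 ± 0.29 for Sphk1 (-1.22 to 0.21) and -0.04 ± 0.12 for Sphk2 (-0.34 to 0.27). They were -0.05 ± 0.15 for Lpar1 (-0.43 to 0.32), -0.34 ± 0.29 for Lpar4 (-1.07 to 0.40) and -0.10 ± 0.14 for Lpar6 (-0.46 to 0.27). Of these brightest probe sets, that of Sphk2 had the narrowest interval and that of Lpar4, whose 2 KO arrays lay far apart, the widest. No further probe set of these members was called. The other Sphk1 probe set averaged below background in both groups. It had the opposite sign, 0.75 ± 0.31 (-0.02 to 1.53), with KO arrays above WT arrays. That of S1pr2 gave -0.23 ± 0.14 (-0.58 to 0.13), with KO arrays below, and that of Sphk2 0.22 ± 0.19. Those of Lpar1 gave 0.07 ± 0.14 and 0.14 ± 0.14, and those of Lpar4 -0.17 ± 0.17 and -0.20 ± 0.18.

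Flk1-positive cells were also set against Flk1 KO embryos, in which 6 of the 7 endothelial markers averaged below background and Tek, an angiopoietin receptor, gave 296 and 439. Among all genes tested, 13.2% were higher and 19.5% lower in the cells. S1pr1 was at least 18.4-fold higher (log2 difference 4.31 ± 0.20, adjusted p = 0.000245), Spns2 14.0-fold higher (3.81 ± 0.20, adjusted p = 0.000297) and Lpar6 2.45-fold higher (1.29 ± 0.14, adjusted p = 0.00262). S1pr3 was 6.29-fold lower (-2.65 ± 0.13, adjusted p = 0.000281), Lpar1 2.69-fold lower (-1.43 ± 0.15, adjusted p = 0.00211) and S1pr2 2.36-fold lower (-1.24 ± 0.20, adjusted p = 0.00809). The other S1pr2 probe set differed by -0.04 ± 0.14, with overlapping arrays (adjusted p = 0.858), so the lower level rests on 1 probe set here too. Sphk1, Sphk2 and Lpar4 had no call by their brightest probe sets. That of Lpar4 gave -0.96 ± 0.29 (adjusted p = 0.0604), and it was called with the pseudocount at the median (adjusted p = 0.0186), with the filter at the 50th percentile (0.0273), with an intensity trend and robust prior (0.0061) and without KO replicate 1 (-1.39, adjusted p = 0.0152). Of the other Lpar4 probe sets, 1 was called lower, 3.04-fold (-1.60 ± 0.17, adjusted p = 0.00207), and 1 was not (-0.63 ± 0.18, adjusted p = 0.0531). The other 2 probe sets of S1pr3 and of Lpar1 were called lower as well, with differences of -2.23 ± 0.24 and -1.99 ± 0.34 for S1pr3 and -1.37 ± 0.14 and -1.40 ± 0.14 for Lpar1. The second probe sets of Sphk1 and Sphk2 had no call. The 3 comparisons share arrays in pairs, so their values are not independent of each other.

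The range of group means as measured, on the log2(signal + 21.61) scale, ordered the members as S1pr1 (4.31), Spns2 (3.81), S1pr3 (2.65), Lpar1 (1.48), Lpar4 (1.30), Lpar6 (1.29), S1pr2 (1.24), Sphk1 (0.50) and Sphk2 (0.11), where the lowest group of S1pr1 and of Sphk1 averaged below background. Genes with the most similar profiles were found for the first 3 by the Euclidean distance over the 6 centred log2 values, as a description with no test. For S1pr1 they were Gimap1, a GTPase of the immunity-associated family (distance 0.168), Mmrn2, an endothelial matrix protein (0.514), and Flt1, a receptor for vascular endothelial growth factor (0.519). Gimap1 gave 805 and 783 on the Flk1-positive arrays, 85.9 and 114 on the WT arrays, and 24.5 and 18.9 on the KO arrays, so it falls in the same order as S1pr1. For Spns2 they were Egr1, an immediate early transcription factor (0.204), Cavin1, a coat protein of caveolae (0.212), and Fmo1, a flavin monooxygenase (0.239). For S1pr3 they were Crabp1, a retinoic acid-binding protein (0.139), Ddit4, an inhibitor of mTORC1 signalling (0.178), and Rassf5, a Ras-binding protein (0.181).

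**Figure D3:**
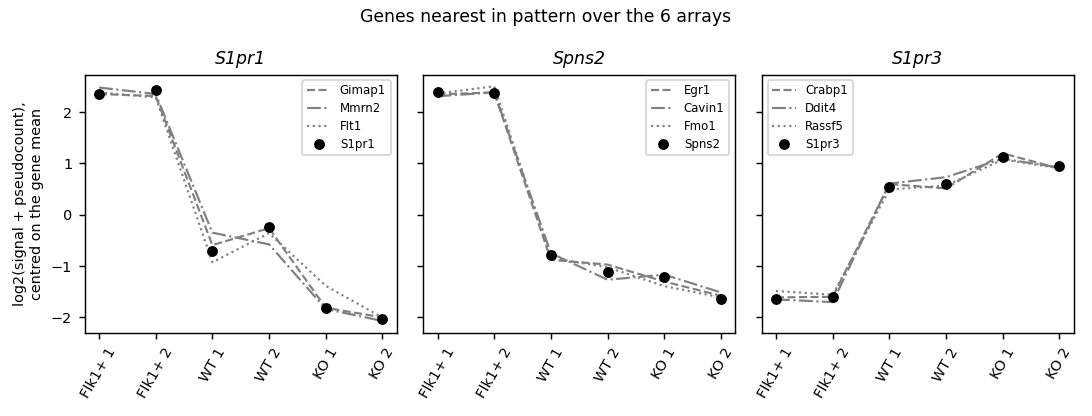
Centred log2 values on the 6 arrays for S1pr1, Spns2 and S1pr3, each with the 3 genes closest to it by Euclidean distance. Gimap1 follows S1pr1 at a distance of 0.168, while Mmrn2 and Flt1 lie at 0.514 and 0.519.

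The remaining genes of the pathway were read from 4 lists by their brightest probe sets, in Flk1-positive cells against WT embryos. In the list of other S1P and LPA receptors, which also holds Gpr35 and Gpr174, 6 of 8 genes were on the array and tested. Of these, 0 were called higher and 3 lower, beside 12.5% and 18% of all genes. The median difference was -0.80, beside -0.09 for all genes, but it lies midway between Gpr174 (-0.04) and S1pr5 (-1.57). Both averaged below background in the cells and in WT embryos, so the median is not a measured shift. S1pr4 (0.001 ± 0.19), Gpr35 (0.62 ± 0.34) and Gpr174 had no call. Lpar3, an LPA receptor, was at least 2.94-fold lower (signals 15.4 and 22.1 against 233 and 189.7, adjusted p = 0.000598). Lpar2, another LPA receptor, was 3.52-fold lower (133 and 102 against 542 and 397, log2 difference -1.81 ± 0.23, adjusted p = 0.00457). S1pr5 passed the test with both groups below background, so no fold is given. With the members, Lpar6 was thus the 1 Lpar gene of the 5 tested that was called higher in the cells, and the other 4 were called lower.

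Of 19 genes of S1P making, breakdown and carriage, 10 were called higher, beside 12.5% of all genes, and 4 lower, with a median difference of 0.69. Acer2, a ceramidase that frees sphingosine for the kinases, was 5.90-fold higher in the cells (1209 and 1383 against 214 and 189, log2 difference 2.56 ± 0.14, adjusted p = 0.00047). Mfsd2b, the S1P exporter of red blood cells and platelets, was at least 3.70-fold higher (292 and 249.9 against 35.2 and 26.6, adjusted p = 0.00061), beside the erythroid markers given above, whose part in it was not tested. Asah2, a neutral ceramidase, was 4.51-fold higher (628 and 521 against 109 and 111, adjusted p = 0.000613).

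The 4 of 19 called lower compare with 18% of all genes. Sgpp2, an S1P phosphatase, was at least 4.90-fold lower (37.7 and 35.9 against 348 and 384, adjusted p = 0.000433). The other phosphatase, Sgpp1, was instead called higher, 2.69-fold (log2 difference 1.43). Cers6, a ceramide synthase, was 2.89-fold lower (adjusted p = 0.00346), and Apom, the plasma protein that carries S1P on lipoproteins, was 2.87-fold lower (adjusted p = 0.00415). The fourth was Sgpl1, the lyase that degrades S1P irreversibly, at 502 and 527 against 932 and 901, a log2 difference of -0.81 ± 0.12 (adjusted p = 0.00785). The other genes called higher were Abca1, Cers2, Cers4, Cers5, Degs1 and Sptlc2, with log2 differences from 0.69 to 1.71.

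Of 8 listed genes of LPA making and breakdown, 7 were tested. Of these, 3 were called higher and 1 lower, with a median of 0.16, beside 12.5% higher and 18% lower over all genes. The 3 were the lipid phosphate phosphatases, which remove phosphate from LPA and S1P outside the cell: Plpp2 at 1.41 ± 0.18 (adjusted p = 0.00407), Plpp1 at 1.13 ± 0.16 (adjusted p = 0.00586) and Plpp3 at 0.56 ± 0.13 (adjusted p = 0.0306). Plppr1, a related protein without that enzyme activity, was at least 3.45-fold lower (30.5 and 26 against 231 and 272, adjusted p = 0.00053). Enpp2, which encodes autotaxin, was not matched to a probe set with 1 symbol.

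Of 7 genes of receptor control, 5 were tested. Of these, 3 were called higher and 0 lower, with a median of 0.66, beside 12.5% higher and 18% lower over all genes. Klf2, a transcription factor that drives S1pr1 in lymphocytes and responds to flow in endothelium, was 12.5-fold higher in the cells before circulation (1139 and 1184 against 59.6 and 89.3, log2 difference 3.64 ± 0.18, adjusted p = 0.000433). In Flk1 KO embryos Klf2 gave 64.5 and 65.2, overlapping the WT arrays. Both kinds of embryo lay near the background level of 57.4, so a fall in Flk1 KO embryos could hardly be seen. Arrb1, a beta-arrestin that uncouples activated receptors, was higher by 0.84 ± 0.13 (adjusted p = 0.00908) and Grk5, a receptor kinase, by 0.66 ± 0.13 (adjusted p = 0.0165). Without Flk1-positive replicate 2 or without WT replicate 1, 1 of the 3 calls was made.

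**Figure D4:**
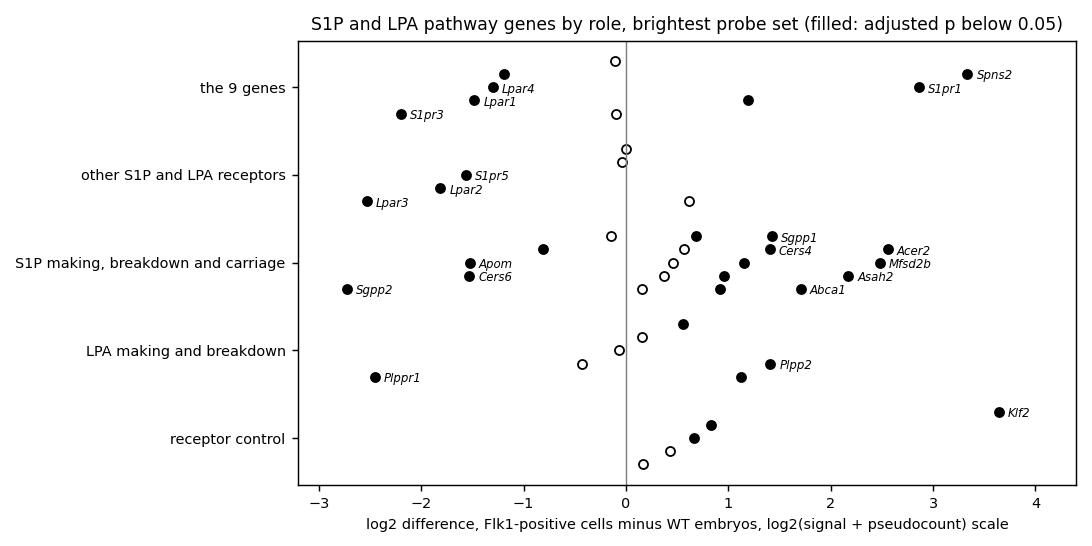
Log2 differences between Flk1-positive cells and WT embryos for the 9 genes and each tested gene of 4 pathway lists, with filled points for calls and the largest differences named. The list of S1P making, breakdown and carriage has 10 calls above 0 and 4 below, and the other receptors have 3 below and 0 above.

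In Flk1 KO embryos against WT embryos, none of the genes of the 4 lists was called by limma, beside the 0.14% called lower over all genes. Acer2 had the lowest difference of the S1P list, at 103 and 110.4 in KO embryos against 214 and 189 in WT embryos (log2 difference -0.80 ± 0.14, adjusted p = 0.229). KO arrays lay wholly below the WT arrays for 4 of the 19 genes of that list, beside 18.2% of all genes. They lay wholly above for 4, beside 19.1% of all genes.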

How the data were processed

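An RNeasy Micro kit was used for total RNA, which was biotin-labelled for Affymetrix arrays, per the labels' protocols, and the series design names GeneSpring. The authors deposited a linear signal for each of 45101 probe sets on 6 arrays, scaled before deposit to a trimmed mean (2% left out at each end) of 500, with a lowest value of 1. The labels do not name the program that made the signals, and no detection calls were used here. The platform annotation gave 1 gene symbol to 34958 probe sets, several to 932 and none to 9211, and those with 1 were used.

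Signals were taken as log2(signal + 21.61), the 25th percentile of all values. Without the 64 control probe sets, 33778 with a mean log2 at or above its 25th percentile were fitted over all 6 arrays, with group as the only term, in limma 3.58.1 (R 4.3.3; lmFit and eBayes, two-sided, 2.49 prior degrees of freedom), and p-values were adjusted by Benjamini-Hochberg. The deposited scale was kept, since the 6 log2 medians differed by at most 0.15. A gene was read by its brightest probe set (highest mean log2), and all member probe sets are reported, while further probe sets of pathway genes were not read and can differ in call. Of each pathway list, up to 3 rises and 3 falls past the test of largest size were named, and further genes with values (Sgpp1, Sgpl1, and Acer2 in Flk1 KO embryos) were chosen after their values were seen. The members, the pathway and marker lists and the rules were chosen with earlier results of these data known. Precision is limited by having 2 arrays a group. The fitting code was tested on simulated data. Plots used matplotlib 3.10.9 (Python 3.11.15). Alternatives varied the pseudocount, filter, scaling, prior, groups fitted, probe sets per gene, replicate block and left-out arrays. Some further pathway genes are not reported here.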

Additional observations from a re-analysis of the deposited data

How the results depend on the processing

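Depth is set here by signal over background, and Sphk1 lay too near background to be measured well; it was not in the fit with the filter at the 50th percentile. Over the member differences under all alternatives, 136 values kept direction and side of the threshold in Flk1-positive cells against WT embryos, 132 in Flk1 KO against WT embryos and 139 in the cells against Flk1 KO embryos; 5 lost a call in the first, 2 gained one in Flk1 KO against WT embryos and 4 in the cells against KO embryos. In Flk1 KO against WT embryos, 0 probe sets were called higher and 27 lower. Lower calls there were 0 with the pseudocount at the 10th percentile, 68 (with 6 higher) at the median, 7 with no filter, 86 (with 7 higher) with the filter at the 50th percentile, 12 with quantile normalization, 14 with median centring, 121 (with 13 higher) with an intensity trend and robust prior, 0 with only the 2 groups fitted, and 0 in each fit without 1 array; with 1 probe set per gene there were 36 (with 1 higher). The filter at the 50th percentile and the trend each called 1 member lower, S1pr1. With 1 probe set per gene, the cells had 2153 higher and 3113 lower calls against WT embryos and 2219 and 3289 against KO embryos, fewer genes being tested. Without 1 array, the cells had 2049 to 4075 higher and 2210 to 4861 lower against WT embryos (members lower 2 to 4, with 2 without WT replicate 1), and 2520 to 3884 and 3288 to 3972 against KO embryos. Direction turned only for differences without a call. Median centring, which moved the median of Flk1 KO against WT embryos by 0.102 (from -0.022 to 0.081), gave 0.07 for Sphk2, 0.05 for Lpar1 and 0.01 for Lpar6 there. Without 1 array, Sphk1 ran from -0.34 to 0.14 in the cells against WT embryos, and in Flk1 KO against WT embryos S1pr2 ran from -0.11 to 0.20, Lpar1 from -0.16 to 0.06, Lpar4 from -0.76 to 0.09 and Lpar6 from -0.21 to 0.02. Correlations of same-numbered deviations (0.00801 to 0.029) showed no pairing by replicate number, a question that 2 arrays a group cannot settle. With a replicate block, 0 probe sets were lower in Flk1 KO against WT embryos, and the cause was not tested for this or the other changes in counts.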
